A study of Mus musculus with 9 samples.

Results

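Matricellular proteins are secreted into the extracellular matrix, where they tune how cells attach, migrate and respond to growth factors rather than serving as structural fibers. The CCN family is a group of such proteins that bind integrins, proteoglycans and growth factors through a shared set of modules, and several of its members are active in skeletal tissue. Sparc, Postn, Tnc and Cthrc1 encode other secreted matrix-associated proteins known from bone, periosteum, tendon and healing tissue. The 9 genes described here are Cyr61, Ctgf, Nov, Wisp1 and Wisp2, which are now also named Ccn1 to Ccn5, together with Sparc, Postn, Tnc and Cthrc1. They were chosen by name out of 43548 gene identifiers in the deposited expression table, and all 9 were among the 18714 genes abundant enough to be tested.

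RNAseq had been performed on skull tissue of mouse embryos at E14.5 to learn how gene expression in the cranial vault responds to Fgf8b, with the cranial base taken as a reference for hyaline cartilage. In MCAGF8 embryos the Msx2-Cre transgene, active in the surface ectoderm, removes a stop cassette from an Fgf8b allele at the ROSA26 locus so that the CAG promoter drives Fgf8b. Control embryos came from the same cross. The labels call them wildtype, while the methods describe controls as lacking Cre and the Fgf8b parents as homozygous, so by that scheme controls carry the allele with its stop cassette in place. The strain is labelled as mixed. There were 3 libraries each of the MCAGF8 vault, the control vault and the control base. RNA of 3 tissue samples was combined for every library, the vault was taken after the skin had been peeled away, and the base was taken from the control embryos after their vault. How single embryos were assigned to the base and vault pools is not stated, and the fit took all libraries as independent. Every SD below is therefore the spread between pools. Standard errors from the fit pool this spread over all 3 groups and are moved toward those of genes of like abundance. Values are FPKM (fragments per kilobase of transcript per 1000000 mapped fragments), which are scaled by length and can be compared between genes. The number of reads per library is unknown, so no counting interval can be given. FPKM summed to between 793249 and 1315981 per library, and 16006 to 17281 genes had at least 1 FPKM.

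The tissues could be checked against marker genes. The 10 cartilage genes listed as markers were detected in every library, but their summed FPKM in the control base was 10232 in replicate 2 and only 984 and 1493 in replicates 1 and 3, less than the 2054 to 2984 of the control vault. Control base replicate 2 thus stood apart from the other base libraries, and the values of the 9 genes were also obtained without it. In the MCAGF8 vault the 10 cartilage genes summed to 2817 to 5197. All 10 had a log2 difference above 0 against the control vault, and 0 were called, beside 0.604% of all genes tested. The sum of 10 osteoblast genes was 3729 to 6436 in the control vault, 2230 to 2915 in the MCAGF8 vault and 901 to 2154 in the control base. Most of this sum was Col1a1, and the other 9 genes summed to 1065 to 2524, 129 to 249 and 376 to 1141 in these groups, which puts the MCAGF8 vault lowest. Skeletal muscle genes summed to 914 to 5757, 52.6 to 205 and 1740 to 11193 in the same order. The 4 neuron genes found in the data summed to 22.9 to 60.1, 43.0 to 80.2 and 230 to 891, highest in the control base. The part of muscle and neuron RNA in the differences against the base was not tested. Although the skin had been removed, 6 epidermal genes summed to 374 to 690 FPKM in the MCAGF8 vault, 8.58 to 86.2 in the control vault and 61.6 to 669 in the control base. All 6 were higher in the MCAGF8 vault than in the control vault at an unadjusted p under 0.05, with a median log2 difference of 3.57. Of them 1 was called, beside 0.604% of all genes, and 1186 of all 18714 genes tested passed the unadjusted threshold. The part of epidermal RNA in the vault differences below was not tested. In such bulk tissue, fewer cells of a type cannot be told apart from less RNA per cell.

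The 9 genes ranged widely in abundance (shown for each library in the plot of FPKM by gene). Sparc, which encodes the collagen-binding glycoprotein also known as osteonectin, was the most abundant in every group. It ranked 11th by mean FPKM in the control vault, 15th in the MCAGF8 vault and 89th in the control base. Cthrc1 ranked 115th, 190th and 348th in the same groups. At the other end Wisp2 did not exceed 4.89 FPKM in any library. The 9 genes together contributed 5936 ± 361 FPKM in the control vault, 4245 ± 36.6 in the MCAGF8 vault and 2576 ± 203 in the control base (SD, n = 3 each). Sparc alone supplied 67.5% ± 2.82, 64.7% ± 5.28 and 52.2% ± 9.14 of these totals (SD, n = 3 each).

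**Figure D1:**
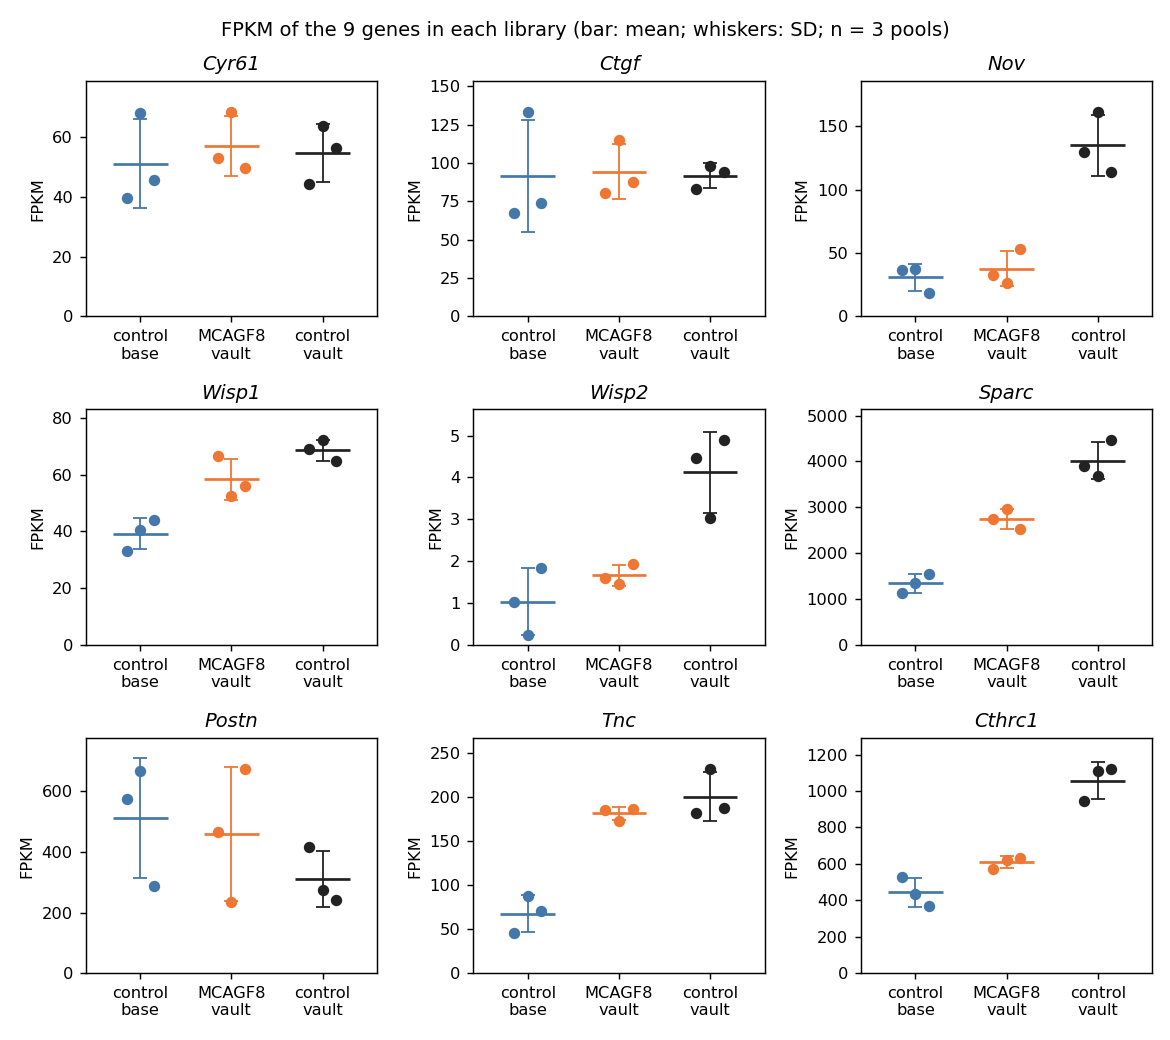
FPKM of each of the 9 genes (vertical axes, linear from 0) in the 3 libraries of each group, with replicates 1 to 3 from left to right, horizontal bars for the mean and whiskers for the SD. Nov and Wisp2 were high in the control vault alone, Tnc and Wisp1 were lower in the control base than in both vaults, Sparc and Cthrc1 were intermediate in the MCAGF8 vault, and Cyr61, Ctgf and Postn overlapped between all groups.

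The libraries fell into 4 arrangements, which are described in turn. For Nov and Wisp2 the MCAGF8 vault overlapped the control base and lay below the control vault. For Sparc and Cthrc1 the MCAGF8 vault lay between the control tissues with no overlap on either side. For Tnc and Wisp1 the MCAGF8 vault overlapped the control vault and lay above the control base. For Cyr61, Ctgf and Postn all groups overlapped. Differences were tested with limma on log2(FPKM + 1) across all 9 libraries, and calls required both an unadjusted p under 0.05 and, with the Benjamini-Hochberg adjustment over all genes tested, an adjusted p under 0.1. Adding 1 to FPKM makes the log2 difference of a low gene such as Wisp2 smaller than its change in FPKM.

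Between the MCAGF8 vault and the control vault, 1 of the 9 genes was called, and it was lower. This was Nov, and the background was 0.604% of all genes tested. For the MCAGF8 vault against the control base, 2 of 9 were called, both higher in the vault, beside 8.39% of all genes. Between the control base and the control vault, 6 of 9 were called, all lower in the base, beside 3.06% of all genes. The last comparison sets 2 control tissues side by side and does not bear on Fgf8b. The groups did not overlap for 4, 4 and 6 of the 9 genes in the same order, beside 19.2%, 21.9% and 15.5% of all genes. The median log2 difference over the 9 genes was -0.24, 0.46 and -1.26, and over all genes tested -0.01, -0.07 and 0.07. All 3 comparisons share libraries, so none is independent of the others.

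**Figure D2:**
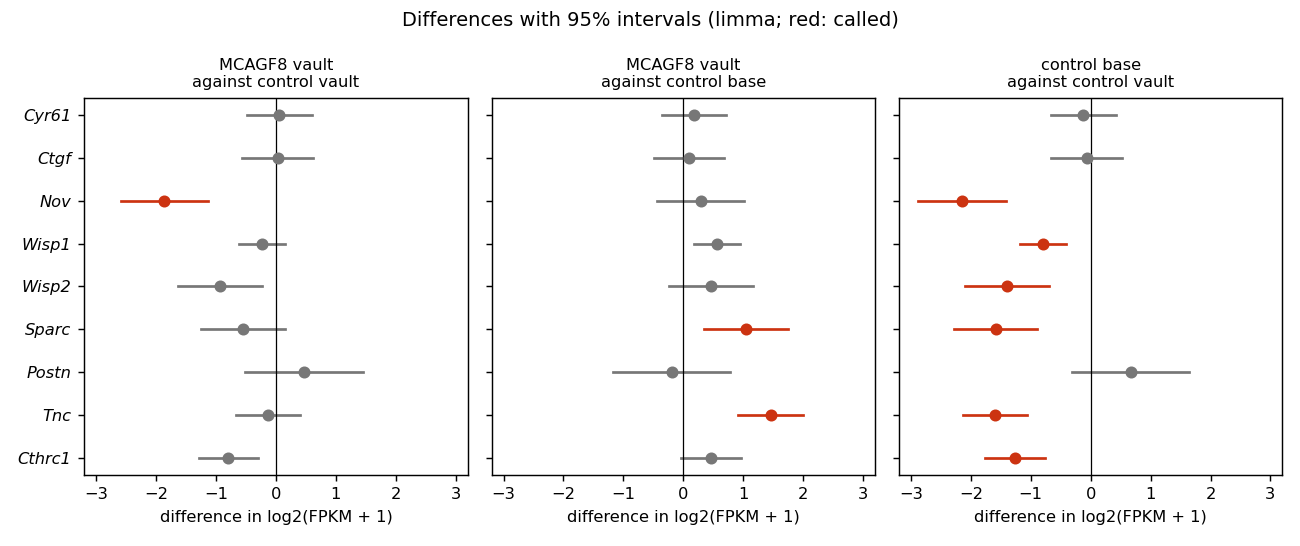
Differences in log2(FPKM + 1) from limma (horizontal axes) for the 9 genes in the 3 comparisons, with 95% intervals, called genes in red and others in grey. Nov at -1.86 was called between the vaults, Sparc and Tnc between the MCAGF8 vault and the control base, and 6 genes between the control tissues.

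Nov, or Ccn3, encodes a CCN protein known to restrain osteoblast differentiation and BMP signaling in culture. It measured 129, 161 and 114 FPKM in the control vault, 32.9, 26.6 and 53.4 in the MCAGF8 vault and 36.9, 37.0 and 18.3 in the control base. Every control vault library was thus above every other library, and MCAGF8 vault and control base overlapped. Mean Nov was 135 ± 24.1 in the control vault and 37.6 ± 14.0 in the MCAGF8 vault (SD, n = 3 each), a 3.59-fold ratio. On the log2 scale Nov fell by 1.86 between the vaults (standard error 0.33, 95% interval -2.59 to -1.13, adjusted p = 0.0727, limma). This call was close to the threshold, and it was lost without control base replicate 1, without any 1 of the MCAGF8 vault libraries and without any 1 of the control vault libraries (adjusted p 0.102 to 0.358), while the log2 difference stayed between -2.14 and -1.65. Between the control base and the control vault Nov fell by 2.15 (standard error 0.33, adjusted p = 0.0160), and that call held with each library left out. MCAGF8 vault and control base differed by 0.29 with a 95% interval of -0.44 to 1.02. Nov (ENSMUSG00000037362) lies on chromosome 15 from 54745702 to 54754039 in GRCm38.

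Wisp2, or Ccn5, encodes the short CCN protein that lacks the C-terminal module of its relatives, and it had the same arrangement at a far lower level. Its FPKM was 4.45, 3.03 and 4.89 in the control vault, 1.60, 1.45 and 1.93 in the MCAGF8 vault and 1.02, 0.236 and 1.84 in the control base. All control vault libraries were again the highest. The mean in the control vault was 2.48 times that in the MCAGF8 vault and 3.98 times that in the control base. The log2 difference between the vaults was -0.93 (standard error 0.31) and was not called (adjusted p = 0.483, limma). In the control base Wisp2 fell by 1.39 relative to the control vault (standard error 0.31, adjusted p = 0.0690). Replacing the added 1 by 0.1 gave -2.20 and lost the call. The call was also lost without any 1 of the 6 vault libraries, with adjusted p of 0.105 to 0.256. Wisp2 (ENSMUSG00000027656) lies on chromosome 2 from 163820861 to 163833146.

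The gene whose profile over the 9 libraries was closest to that of Nov was Tnmd, which encodes the tendon and ligament protein tenomodulin. The root mean square gap between the centered log2 profiles was 0.38 for Tnmd and 0.51 for the next gene, Sema3c, out of 12926 genes searched. Tnmd measured 226, 367 and 293 FPKM in the control vault, 68.5, 77.8 and 99.04 in the MCAGF8 vault and 96.4, 43.9 and 28.7 in the control base. Summed over the tendon genes Scx, Tnmd, Mkx, Fmod and Kera, all 5 of them detected in every library, the level was 502 to 730 in the control vault, 330 to 365 in the MCAGF8 vault and 149 to 253 in the control base. Without Tnmd, which the search had picked, the other 4 summed to 276 to 362, 256 to 287 and 105 to 157, with overlap between the vaults. Between the vaults limma called 0 of the 5 tendon genes, beside 0.604% of all genes. At an unadjusted p under 0.05 there were 2, beside 1186 of all 18714 genes tested. The vault libraries did not overlap for 3 of the 5, all lower in the MCAGF8 vault, beside 19.2% of all genes without overlap. These were Mkx and Fmod as well as Tnmd, whose position was not independent of Nov because the search had picked it for its likeness to Nov. Mkx was at 39.1 to 50.0 FPKM in the control vault, 21.2 to 30.0 in the MCAGF8 vault and 12.6 to 23.9 in the control base. Fmod was at 180 to 223, 134 to 171 and 26.3 to 47.6 in the same order. Kera, a keratan sulfate proteoglycan, was at 52.3 to 83.6 FPKM in the MCAGF8 vault and 17.03 to 52.8 in the control vault. Scx, the transcription factor of tendon progenitors, did not share the order of the sum either, with 28.5 to 42.7 FPKM in the control vault, 18.3 to 42.3 in the MCAGF8 vault and 35.6 to 73.5 in the control base. The part of tendon or ligament cells in the Nov difference was not tested.

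Sparc, the most abundant of the 9, had its libraries ordered by group without overlap. It measured 3893, 3681 and 4463 FPKM in the control vault, 2746, 2971 and 2524 in the MCAGF8 vault and 1139, 1341 and 1539 in the control base. The group means were 4012 ± 405, 2747 ± 224 and 1339.6 ± 200.03 (SD, n = 3 each). The control vault thus held 1.46 times the Sparc of the MCAGF8 vault, and the MCAGF8 vault 2.05 times that of the control base. Sparc rose by 1.04 on the log2 scale in the MCAGF8 vault against the control base (standard error 0.31, adjusted p = 0.0964, limma) and fell by 1.59 in the control base against the control vault (standard error 0.31, adjusted p = 0.0464). Between the vaults the log2 difference was -0.54 with a standard error of 0.31 and was not called (unadjusted p = 0.113, adjusted p = 0.957, limma). In this fit each gene's error is moved toward that of genes of like abundance. The standard error of Sparc was 0.19 in limma without that trend and 0.13 without moderation, and the vault difference was called in neither (adjusted p 0.502 and 0.459). Without moderation 0 of all genes were called between the vaults, so the missing call there says nothing about Sparc itself. The call against the control base rested on single libraries, with an adjusted p of 0.153 to 0.302 when any library other than control base replicate 2 was left out. The call between the control tissues was lost without MCAGF8 vault replicate 1 or 3 or any 1 control vault library (adjusted p 0.104 to 0.195).

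Cthrc1, which encodes a secreted collagen triple helix repeat protein linked to bone formation and matrix remodeling, was arranged like Sparc. It was at 943, 1108 and 1122 FPKM in the control vault, 571, 622 and 635 in the MCAGF8 vault and 527, 435 and 370.4 in the control base. No library of 1 group reached those of the next, although MCAGF8 vault replicate 1 and control base replicate 1 were close. Its mean was 1058 ± 99.6, 609 ± 34.0 and 444 ± 78.6 in these groups (SD, n = 3 each). Between the vaults the log2 difference was -0.79 (standard error 0.22, 95% interval -1.29 to -0.29). It passed an unadjusted p of 0.05 but was not called over all genes (adjusted p = 0.311, limma). The control base was lower than the control vault by a called difference, where Cthrc1 fell by 1.26 (standard error 0.22, adjusted p = 0.0295), though not without control vault replicate 2 or 3 (adjusted p 0.126 and 0.149). MCAGF8 vault and control base differed by 0.47 (standard error 0.22, adjusted p = 0.284), a difference that was called after quantile normalization (0.74). Sparc and Cthrc1 are both among the genes that the study picked as lower in the MCAGF8 vault on these same libraries, so their order between the vaults is not independent evidence. The study's lists of significant genes used p under 0.05, whereas calls here also required an adjusted p under 0.1.

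The nearest profile to Sparc was that of Pcolce, which encodes an enhancer of procollagen processing, with a root mean square gap of 0.12. Pcolce averaged 503, 293 and 157 FPKM in the control vault, MCAGF8 vault and control base. The next gene was Klf4, a transcription factor, with a gap of 0.17. For Cthrc1 the nearest were Tnfrsf23 (0.18) and the integrin-like gene Itgbl1 (0.19), and for Wisp2 they were Hpse, which encodes heparanase (0.20), and Calhm5 (0.26). The osteoblast genes were highest in the control vault, as Sparc and Cthrc1 were, but 8 of the 10 were lower in the MCAGF8 vault than in the control base, with a median log2 difference of -1.04. Among them, Ibsp, Sp7, Ifitm5 and Phospho1 were lower in the MCAGF8 vault than in the control base in every library, an order that Sparc and Cthrc1 did not share. Col1a1, the main collagen of bone and of loose connective tissue, carried the order of the osteoblast sum and was closer to Sparc, with 2664 to 3913 FPKM in the control vault, 2102 to 2666 in the MCAGF8 vault and 500.4 to 1013 in the control base. Runx2, from the same list, was also higher in the MCAGF8 vault than in every control base library, and overlapped between the vaults. It averaged 53.5 FPKM in the control vault, 44.3 in the MCAGF8 vault and 28.6 in the control base. The part of osteoblasts in the Sparc and Cthrc1 differences was not tested.

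Tnc encodes tenascin-C, a large hexameric glycoprotein of embryonic mesenchyme, periosteum and tendon. It measured 182, 232 and 188 FPKM in the control vault, 185, 173 and 186 in the MCAGF8 vault and 45.4, 87.9 and 70.5 in the control base. The vault libraries overlapped, and all of them were above every base library. In the MCAGF8 vault Tnc rose by 1.46 against the control base (standard error 0.24, adjusted p = 0.0113, limma), a 2.67-fold ratio of means. In the control base it fell by 1.59 against the control vault (standard error 0.24, adjusted p = 0.0160). Both calls held with any 1 library left out, at adjusted p of at most 0.0621 and 0.0774. The difference between the vaults was -0.14 with a 95% interval of -0.67 to 0.40, and its sign turned after quantile normalization (0.029) or rescaling of library sums (0.037). The closest profiles were those of Col5a2, a fibrillar collagen chain, and Pcsk5, a proprotein convertase, each with a gap of 0.15. Col5a2 averaged 639 FPKM in the control vault, 552 in the MCAGF8 vault and 229 in the control base. Tnc overlaps the antisense gene 8030451A03Rik, which did not exceed 0.652 FPKM.

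**Figure D3:**
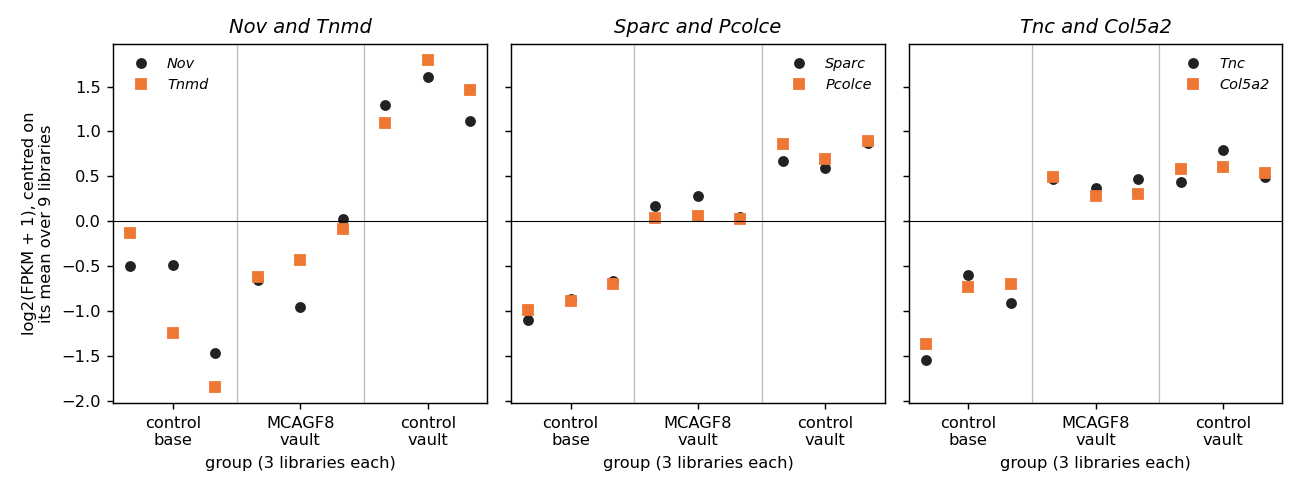
Centered log2(FPKM + 1) (vertical axis) of Nov, Sparc and Tnc (circles) and of the gene with the nearest profile to each (squares) in the 9 libraries, by group. Gaps of 0.38, 0.12 and 0.15 separate Nov from Tnmd, Sparc from Pcolce and Tnc from Col5a2, and the pair in the first panel departs most in the control base.

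Wisp1, or Ccn4, was found as a gene induced by WNT signaling and is expressed in osteoblast precursors. It measured 69.0, 72.1 and 64.7 FPKM in the control vault, 66.5, 52.4 and 56.1 in the MCAGF8 vault and 33.1, 40.5 and 44.2 in the control base. Only MCAGF8 vault replicate 1 reached the range of the control vault, and no vault library fell into the range of the base. Wisp1 fell by 0.80 in the control base against the control vault (standard error 0.17, adjusted p = 0.0579, limma), a call lost without MCAGF8 vault replicate 1 or 3 or any 1 control vault library (adjusted p 0.104 to 0.201). The MCAGF8 vault was above the control base by 0.56 (standard error 0.17), just outside the threshold with an adjusted p of 0.101. That difference was called without control base replicate 2 (0.59, adjusted p = 0.0592) or replicate 3 (0.65, adjusted p = 0.0972). The log2 difference between the vaults was -0.24, with a 95% interval of -0.62 to 0.15.

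Cyr61, or Ccn1, is an immediate early gene that answers serum, tension and YAP/TAZ activity. It measured 44.3, 63.4 and 56.3 FPKM in the control vault, 52.8, 68.4 and 49.4 in the MCAGF8 vault and 39.6, 68.0 and 45.5 in the control base. The groups overlapped completely, and replicate 2 was the highest in each of them. Ctgf, or Ccn2, is a close relative with a role in cartilage growth and matrix production. It measured 83.0, 98.4 and 93.9 FPKM in the control vault, 80.8, 115 and 87.6 in the MCAGF8 vault and 67.4, 133 and 73.8 in the control base, again with the second replicate highest in each group. The log2 difference between the vaults was 0.06 for Cyr61 (95% interval -0.48 to 0.59) and 0.03 for Ctgf (95% interval -0.56 to 0.62). The intervals exclude a difference of 1 on the log2 scale in either direction, and differences inside them cannot be told from 0. Their sign turned when single libraries were left out. The highest Ctgf value, 133 FPKM, was in control base replicate 2, the library with the highest cartilage genes. Without that library, Ctgf in the base was 0.37 below the control vault (adjusted p = 0.298) and Cyr61 0.34 below it (adjusted p = 0.397), and neither was called. Ctgf exceeded Cyr61 by 1.53 to 1.96 times in the 9 libraries. Ctgf overlaps the antisense gene Gm15270, which was at 4.001 to 6.79 FPKM.

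Together the 5 CCN genes summed to 354 ± 38.3 FPKM in the control vault, 249 ± 14.46 in the MCAGF8 vault and 214 ± 56.8 in the control base (SD, n = 3 each). The makeup of this sum differed more than its size. Nov made up 34.2% to 40.5% of CCN FPKM in the control vault, 10.1% to 21.5% in the MCAGF8 vault and 9.98% to 20.7% in the control base. Ctgf was 24.7% to 28.1% of it in the control vault and 34.4% to 43.5% in the MCAGF8 vault. Mean Ctgf itself was 91.8 and 94.4 FPKM in these groups, so its share differed through the rest of the sum. Nov was thus the most abundant CCN gene in each control vault library, and Ctgf was in each of the other 6 libraries.

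**Figure D4:**
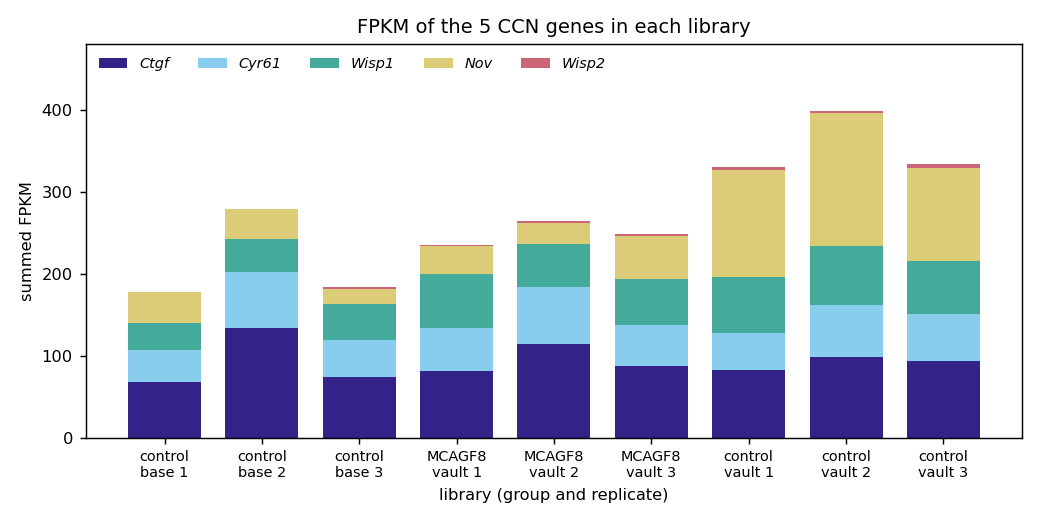
Stacked FPKM (vertical axis) of Ctgf, Cyr61, Wisp1, Nov and Wisp2 in each of the 9 libraries (horizontal axis). The Nov segment takes 34.2% to 40.5% of the bar in the control vault and at most 21.5% in the other libraries.

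Postn encodes periostin, a ligand of integrins that is abundant in periosteum and cranial mesenchyme. It measured 415, 275 and 243 FPKM in the control vault, 466, 235 and 674 in the MCAGF8 vault and 575, 667 and 289 in the control base. Postn was the most variable of the abundant genes, with a 2.87-fold range among the MCAGF8 vault libraries and 2.31-fold among those of the base. Its mean was highest in the control base, unlike those of Sparc and Cthrc1, but all groups overlapped. No comparison called it, and its log2 difference between the vaults was 0.47 with a 95% interval of -0.51 to 1.45. The nearest profiles were those of the noncoding RNA Dleu2 (gap 0.18) and Esf1 (0.19), which varied between the same replicates.

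Promoter windows of 250 bases before a transcription start were at hand for Cyr61, Postn, Sparc and Tnc, 4 of the 9 genes, from RefSeq on GRCm38.p6. They were searched on both strands for GGAATG or CATTCC, the core of the sites bound by TEAD factors. The other motifs were TATAAA or TTTATA, common letters of the TATA box, and the CArG box of serum response factor. Of 32851 such windows in the genome, 12.6% held the TEAD core, 12.4% the TATA letters and 1.47% a CArG box. The windows of Cyr61, Postn and Tnc are shown because these genes had 2 of the arrangements above, with matches in capitals and the rest in lower case, 5′ to 3′ on the strand of the gene. The Cyr61 window (chr3:145649986-145650235, minus strand) held a TEAD core starting 103 bases before the start and a TATA box 25 bases before it. The Postn window (chr3:54360857-54361106, plus strand) held a TATA box 26 bases before the start. In the Tnc window (chr4:64047016-64047265, minus strand) the letters TATAAA began 126 bases before the start. Neither window had a TEAD core. A second window of Postn, at an earlier start, held none of the 3 motifs. A second start of Tnc placed the same TATAAA letters 205 bases before it. The window of that second Tnc start also held tatataag nearer to the start, which the search for TATAAA did not match. The Sparc window had no match of the 3 motifs. A match of letters describes the sequence and shows no binding.
Cyr61: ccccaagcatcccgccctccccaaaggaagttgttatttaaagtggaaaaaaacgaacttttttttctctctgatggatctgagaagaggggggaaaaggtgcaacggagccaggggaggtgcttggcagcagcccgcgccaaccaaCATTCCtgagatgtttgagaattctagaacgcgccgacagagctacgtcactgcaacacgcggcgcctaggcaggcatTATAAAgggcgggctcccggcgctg
Postn: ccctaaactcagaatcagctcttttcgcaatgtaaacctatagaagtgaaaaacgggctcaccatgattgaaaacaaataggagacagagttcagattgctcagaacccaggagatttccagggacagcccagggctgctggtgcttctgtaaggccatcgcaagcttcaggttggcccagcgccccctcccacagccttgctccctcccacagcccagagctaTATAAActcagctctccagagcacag
Tnc: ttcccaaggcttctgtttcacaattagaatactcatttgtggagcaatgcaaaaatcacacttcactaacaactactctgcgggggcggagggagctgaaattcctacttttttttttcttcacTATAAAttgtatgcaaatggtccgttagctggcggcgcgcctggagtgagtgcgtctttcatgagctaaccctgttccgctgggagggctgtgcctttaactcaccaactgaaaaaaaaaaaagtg

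Cyr61 and Ctgf are standard readouts of YAP and TAZ, the coactivators that act through TEAD factors, so 20 other targets were examined. Between the vaults 0 of the 20 were called by limma, beside 0.604% of all genes, and the median log2 difference was 0.16. Of the 20, 3 were at an unadjusted p under 0.05, beside 1186 of all 18714 genes tested. The vault libraries overlapped for 10 of the 20. All MCAGF8 libraries lay above those of the control vault for 6 targets and below them for 4. Among all genes, 19.2% had no overlap between the vaults. A per-gene linear model without moderation called 0 of all genes in this comparison. The targets with the lowest p were Nt5e, a cell surface nucleotidase, at 7.94, 11.6 and 7.15 FPKM in the control vault and 17.8, 16.2 and 34.2 in the MCAGF8 vault, and Ankrd1, a muscle ankyrin repeat protein, at 2.88, 8.17 and 1.92 against 0.131, 0.532 and 0.747. Nt5e was higher and Ankrd1 lower in every MCAGF8 library. Their log2 differences were 1.21 (adjusted p = 0.205) and -1.70 (adjusted p = 0.214). With the control base as the reference, 4 of the 20 targets were called, beside 8.39% of all genes. Nt5e was higher by 0.99, and Ankrd1, Nuak2 and Foxf2 were lower by log2 differences of -2.15, -0.91 and -3.72. Foxf2, a forkhead factor of facial mesenchyme, was at 48.0, 20.2 and 46.2 FPKM in the control base and at most 2.90 in any vault library. The 2 targets called between the control tissues, beside 3.06% of all genes, were Foxf2, higher in the base (3.61), and Ccdc80, lower (-0.78). Ankrd1 is also expressed in muscle, and the muscle genes were lowest in the MCAGF8 vault as well. The part of muscle in that difference was not tested.

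Between the vaults, 9 of 11 genes for YAP, TAZ, TEAD and SRF regulators had a log2 difference above 0, with a median of 0.26. By limma 0 were called, beside 0.604% of all genes. At an unadjusted p under 0.05 there was 1, beside 1186 of all 18714 genes tested. The vault libraries did not overlap for 6 of the 11, 5 higher and 1 lower in the MCAGF8 vault, beside 19.2% of all genes. The lowest p belonged to Wwtr1, which encodes TAZ, at 52.6, 67.7 and 57.9 FPKM in the control vault and 82.0, 75.4 and 74.9 in the MCAGF8 vault (log2 difference 0.38, adjusted p = 0.762), and to Tead4 (-0.71, adjusted p = 0.856). Wwtr1 rose by 0.60 in the MCAGF8 vault against the control base (adjusted p = 0.0758), the 1 regulator called among 7 of 11 at an unadjusted p under 0.05. Of all 18714 genes tested, 8.39% were called in that comparison and 3675 were at an unadjusted p under 0.05. Between the control tissues 0 of 11 were called, beside 3.06% of all genes, and 0 were at an unadjusted p under 0.05. Yap1 (-0.26) and Mrtfa (-0.25) had the lowest p there.

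Integrins and scavenger receptors bind many CCN and matricellular proteins. Of 18 such receptors, limma called 0 between the vaults, beside 0.604% of all genes. At an unadjusted p under 0.05 there were 3, beside 1186 of all 18714 genes tested. The lowest p belonged to Lrp1 (0.62, adjusted p = 0.670) and Itga6 (0.62, adjusted p = 0.711). Against the control base 4 of the 18 were called, beside 8.39% of all genes, and all of them rose in the MCAGF8 vault. They were the collagen receptor subunit Itga11 (2.13), the scavenger receptor Stab1, which takes up the Sparc protein (0.98), the endocytic receptor Lrp1 (0.84) and the fibronectin receptor subunit Itga5 (0.68). Stab1 is known from macrophages and endothelium, whose marker genes were higher in the same comparison. The 5 macrophage genes summed to 141 to 196 FPKM in the MCAGF8 vault and 62.7 to 110.5 in the control base, with 4 of 5 called, and the 5 endothelial genes to 256 to 353 and 179 to 200.2, with 3 of 5 called. Their part in the receptor differences was not tested. Itga11 measured 26.0, 21.7 and 28.1 FPKM in the control vault, 35.6, 33.4 and 25.2 in the MCAGF8 vault and 4.13, 9.10 and 6.53 in the control base. It had the arrangement of Tnc, with overlapping vaults and a lower base, and was the 1 receptor called between the control tissues (-1.84, adjusted p = 0.0150). In that comparison 3.06% of all genes were called.

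Among 18 further matricellular genes, 17 were tested and Tnr was too low. Between the vaults 2 of the 17 were called, both lower in the MCAGF8 vault, beside 0.604% of all genes. Spp1, or osteopontin, a phosphoprotein of mineralizing bone, measured 841, 306 and 836 FPKM in the control vault, 11.5, 39.6 and 11.8 in the MCAGF8 vault and 89.8, 117 and 237 in the control base. It fell by 5.01 between the vaults (adjusted p = 0.0158), and the study had singled it out on these libraries. Thbs4, a thrombospondin of tendon and muscle, measured 20.9, 18.8 and 14.2 in the control vault, 3.34, 4.58 and 2.86 in the MCAGF8 vault and 32.6, 27.95 and 32.6 in the control base. It fell by 2.05 between the vaults (adjusted p = 0.0146). For both genes the MCAGF8 vault was the lowest of the 3 tissues without overlap, an arrangement that none of the 9 genes had.

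Against the control base 7 of the 17 were called, 3 higher and 4 lower in the MCAGF8 vault, beside 8.39% of all genes. The 4 with the largest log2 differences were Comp (-3.03), the thrombospondin of cartilage and tendon, Spock1 (-2.94), a testican proteoglycan core, Spp1 (-2.87) and Thbs4 (-2.82). Comp was at 77.5 FPKM in control base replicate 2, the library rich in cartilage genes, and at 11.0 and 11.9 in the other base libraries. Those called as higher were Thbs1, Thbs2 and Tnn. Between the control tissues 2 were called, beside 3.06% of all genes. Tnn (tenascin-N), a relative of Tnc, was lower in the base by a log2 difference of -1.92, and Thbs2 (thrombospondin 2) by -1.83. Thbs2 measured 427, 449.7 and 414 FPKM in the control vault, 476, 376 and 369 in the MCAGF8 vault and 86.0, 155 and 129 in the control base, the arrangement of Tnc. The median log2 difference of the 17 was -0.03, -0.02 and -0.04 in the 3 comparisons.

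**Figure D5:**
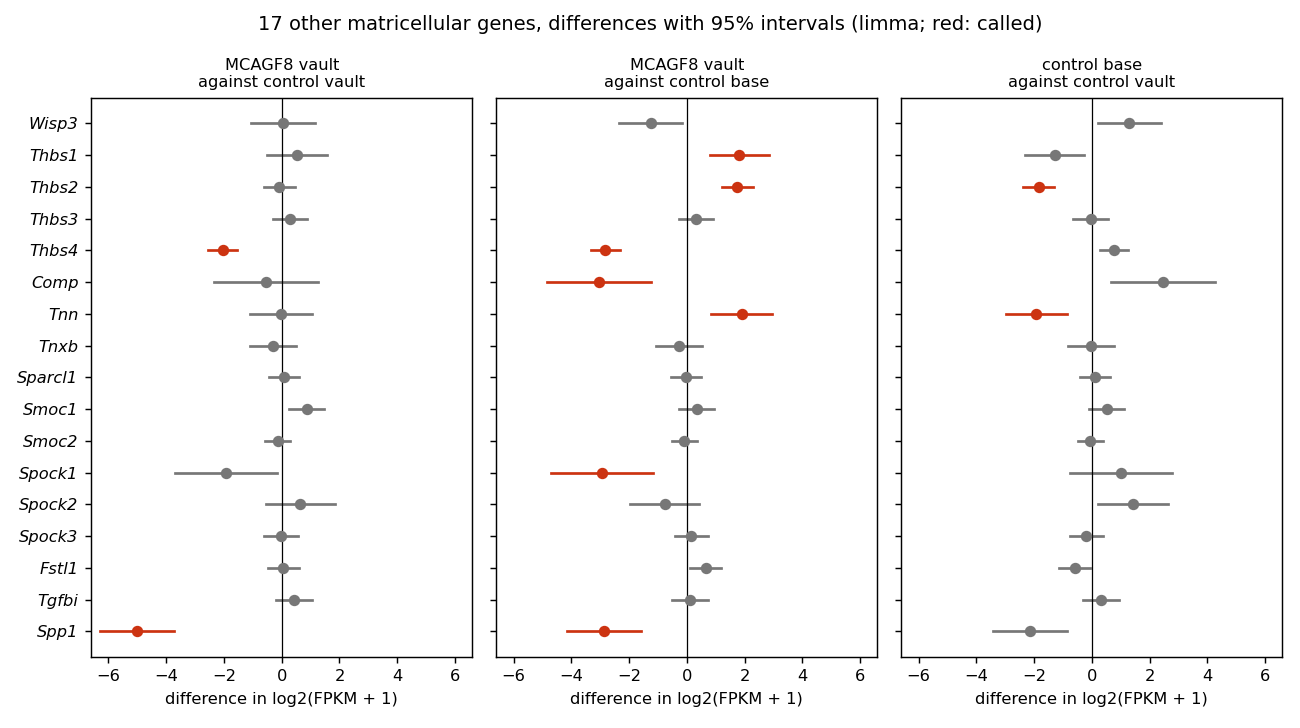
Differences in log2(FPKM + 1) from limma (horizontal axes) for 17 other matricellular genes in the 3 comparisons, with 95% intervals, called genes in red and others in grey. Spp1 at -5.01 and Thbs4 at -2.05 were called between the vaults.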

How the data were processed

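Stranded mRNA libraries had been sequenced as single-end reads, mapped with gSNAP and quantified with Cufflinks. The table that the authors deposited holds FPKM per Ensembl gene. Its build, annotation and program versions are not stated in the sources used here. Of 43611 rows, 63 repeated an identifier and were summed, and 9 genes with the placeholder 999999999 in place of a value were left out. The fit by limma 3.58.1 under R 4.3.3 took genes whose mean FPKM reached 0.5 (eBayes with a trend, log2(FPKM + 1), 1 mean per group, two-sided), a procedure tested on simulated data. The study used ANOVA in R. Profiles were compared for genes whose log2 SD was at least 0.5, among genes of mean FPKM at least 5. Positions were looked up by identifier in GENCODE M21 (GRCm38). The 9 genes and all lists were chosen with earlier results of these data known. From each other list the text names up to 4 called genes per comparison by size, or otherwise the 2 with the lowest p. Alternatives were a pseudocount of 0.1, no filter or a mean of at least 5, quantile normalization, sums rescaled to 1000000, fits to 6 libraries, a replicate block, no moderation, unadjusted p alone, each library left out and, added after the data were seen, limma without the trend. Tables and plots were made with Python 3.11.15, pandas 2.3.3, numpy 2.4.6 and matplotlib 3.10.9.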

Additional observations from a re-analysis of the deposited data

How the results depend on the processing

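Over 27 log2 differences (9 genes in 3 comparisons) and 510 results under alternatives, 430 kept direction and side of the threshold, 54 lost a call, 9 gained one and 17 turned sign, none of the last being called. The cause of these changes was not tested. Between the vaults, where 1 of the 9 genes was called, 0 were called with no filter, quantile normalization, rescaled sums, the replicate block or no moderation, 3 with unadjusted p alone, and 0 to 1 with 1 library left out. Against the control base, where 2 were called, quantile normalization called 4, the fit to 6 libraries 1, the replicate block 1, and leaving out 1 library 1 to 3. Between the control tissues, where 6 were called, the fit to 6 libraries called 1, the replicate block 3, and leaving out 1 library 2 to 6. Control vault replicate 2 or 3 left out gave 2, and control vault replicate 1 or MCAGF8 vault replicate 1 or 3 left out gave 3. Over all genes, apart from unadjusted p alone, the 113 calls between the vaults ranged from 0 (no moderation) to 231, the 1571 against the base from 559 to 4580 and the 573 between control tissues from 108 to 1322, each highest without control base replicate 2. Unadjusted p alone passed 1186, 3675 and 2396 genes. Whether replicate numbers pair the samples is not stated. Deviations of same-numbered libraries correlated at 0.37, -0.07 and -0.43 between the vaults. Between the control base and the control vault they correlated at -0.41, 0.0003 and 0.24. With 3 libraries per group these values cannot decide whether pools were paired, and the block is given for completeness. Rescaling sums moved the median of all genes to 0.13 between the vaults and 0.11 against the base. Signs turned for Tnc between the vaults (0.029 by quantile normalization, 0.037 by rescaling) and Postn against the base (0.049 and 0.018). With 1 library left out, Cyr61 between the vaults ran from -0.084 to 0.17 and Ctgf from -0.12 to 0.13. Relative to the base, Ctgf ran from -0.088 to 0.40, Nov from -0.035 to 0.50 and Postn from -0.56 to 0.22. Between the control tissues, Cyr61 ran from -0.34 to 0.039 and Ctgf from -0.37 to 0.12. Wisp2 has no value with a mean FPKM of at least 5. Depth is unknown, and 3 pools per group limit the precision.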
